A study of Mus musculus with 56 samples.

Results

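The glucocorticoid receptor gene Nr3c1 and 9 genes of glucocorticoid action were examined in visceral adipose tissue (VAT) of mice fed by night or by day. The genes were chosen by name, with earlier results of these data known. All 10 were found by their Ensembl identifier among the 25939 genes of the table: Nr3c1, Hsd11b1, Fkbp5, Tsc22d3, Sgk1, Zbtb16, Mt1, Mt2, Cdkn1a and Lcn2. The mice were female C57BL/6J animals of 9 weeks, and the labels name no genetic change. After 7 days of entrainment to 12 h light and 12 h dark with free access to chow, they spent 7 days on nighttime-restricted feeding (NRF, the control) or daytime-restricted feeding (DRF), so no group fed freely at the time of sampling. VAT of 4 mice per regimen was sequenced as poly(A) RNA at zeitgeber times (ZT) 0, 4, 8, 12, 16, 20 and 24, where ZT0 is lights-on and ZT12 lights-off, which gave 14 groups and 56 libraries.

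Glucocorticoids are steroid hormones of the adrenal cortex whose blood level normally rises toward the active phase. The hormone enters the cell and releases its receptor from a complex of heat shock proteins and immunophilins, and the receptor then moves to the nucleus and binds DNA, often as a dimer on a palindromic response element. In adipose tissue the pathway is known for lipolysis, fat cell differentiation and the restraint of inflammation, and the tissue makes active hormone itself through the reductase Hsd11b1.

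Promoter sequences of 4 target genes are shown for the motifs they hold, which are those of the glucocorticoid receptor (Sgk1), of metal response (Mt1 and Mt2) and of the clock (Fkbp5). The Fkbp5 window held neither the full glucocorticoid response element nor its half-site. Each is the 250 bases before a RefSeq start of transcription (build GRCm38.p6), written 5′ to 3′ on the strand of the gene, and 8 of the 10 genes had at least 1 such window. For Sgk1, capitals mark the glucocorticoid response element alone, the half-site AGAACA followed after 3 bases by its reverse complement. For Mt1 and Mt2, capitals mark the metal response element cores TGCGCNC and TGCACNC on either strand. For Fkbp5, capitals mark the E-box CACGTG, the site of the clock activators.
Sgk1, chr10:21993640-21993889, plus strand: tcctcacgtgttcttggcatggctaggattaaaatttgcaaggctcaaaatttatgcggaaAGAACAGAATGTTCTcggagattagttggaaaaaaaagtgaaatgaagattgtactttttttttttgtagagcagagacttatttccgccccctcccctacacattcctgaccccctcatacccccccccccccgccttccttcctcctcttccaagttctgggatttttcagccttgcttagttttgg
Mt1, chr8:94178839-94179088, plus strand: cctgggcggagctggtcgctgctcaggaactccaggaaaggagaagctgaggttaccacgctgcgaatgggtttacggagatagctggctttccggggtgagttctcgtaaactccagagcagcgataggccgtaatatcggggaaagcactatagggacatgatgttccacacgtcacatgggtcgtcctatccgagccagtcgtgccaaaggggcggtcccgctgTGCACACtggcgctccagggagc
Mt2, chr8:94172368-94172617, plus strand: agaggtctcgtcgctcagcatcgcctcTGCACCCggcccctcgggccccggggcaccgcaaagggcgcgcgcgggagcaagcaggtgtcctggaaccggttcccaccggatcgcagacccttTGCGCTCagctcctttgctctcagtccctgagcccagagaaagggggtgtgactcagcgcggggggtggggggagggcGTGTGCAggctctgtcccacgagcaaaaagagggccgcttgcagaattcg
Fkbp5, chr17:28486150-28486399, minus strand: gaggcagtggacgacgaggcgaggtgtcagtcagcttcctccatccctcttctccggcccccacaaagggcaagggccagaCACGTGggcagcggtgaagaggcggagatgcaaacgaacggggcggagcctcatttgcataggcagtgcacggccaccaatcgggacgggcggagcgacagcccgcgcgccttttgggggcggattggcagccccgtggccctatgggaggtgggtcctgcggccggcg
The full element lay 189 to 175 bases before the Sgk1 start, in 1 of the 6 windows of this gene, and was matched in 3 of all 32851 windows (0.00913%). No other member had it in its windows. The half-site, which the full element also contains, occurred in 16.1% of all windows, the core TGCGCNC in 12.5%, the core TGCACNC in 10.4% and the E-box in 6.02%. Mt2 held 3 metal response element cores and Mt1 held 1. The Sgk1 window shown also held an E-box 246 to 241 bases before the start, and the Hsd11b1 window, not shown, held 1 core TGCACNC 237 to 231 bases before it. Both strands were searched, and a match is a string of letters, not a site shown to be bound.

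The libraries held 31144102 to 41246347 reads on genes (median 35541820). Levels are given as counts per 1e6 of a library size (CPM), both recovered from the deposited values. This size was 0.934 to 1.36 times the reads on genes (median 1.06), so the levels hold a scaling made before deposit. Differences are given on the log2(CPM + 1) scale, which understates changes of genes near 1 CPM. Adipoq, a fat cell hormone, stood between 1025 and 3770 CPM. In 2 DRF libraries, ZT0 replicate 4 and ZT8 replicate 1, the 11 measured of 12 listed markers of uterine and oviduct epithelium summed to 3165 and 696 CPM. Their library sizes were 1.19 and 1.36 times their reads on genes, which lowers all their levels. Of these ratios only 1.36 lay outside those of the other libraries, which reached 1.20 (NRF ZT8 replicate 1). In the other 54 libraries the epithelial sum was 29.3 to 136 CPM. The fat cell markers of these 2 libraries summed to 22676 and 16256 CPM, beside an NRF median of 41567 CPM. The mean levels that passed among the 10 genes are given with and without them, and of the 18 list genes named with a mean level below, 18 kept their direction and their side of 0.05 without them. In NRF ZT24 replicate 4 the 5 measured of 6 listed liver markers summed to 1615 CPM, beside 14.2 to 77.4 CPM in the other 55 libraries, and without it 2 of the 5 were higher under DRF in mean level and none lower. This library also held the highest Hsd11b1 (65.7 CPM) and Cdkn1a (96.7 CPM) of the 4 NRF mice at ZT24. Over all genes 11.4% were higher and 10.3% lower in mean level under DRF. Of the marker lists, 5 of 5 red cell markers were higher under DRF (summed median 274 CPM under NRF and 476 CPM under DRF, range 176 to 746 CPM under NRF and 209 to 859 CPM under DRF). Of 6 macrophage markers 4 were lower (summed median 1002 and 829 CPM), and of 6 mesothelium markers 3 were lower (448 and 353 CPM). Of 7 ovary and adrenal markers 2 were lower (12.1 and 9.49 CPM). Of 8 fat cell markers 1 was higher and 2 were lower (41567 and 39614 CPM), and of 7 neutrophil markers 1 was higher. The part of these cells in the results was not tested, and in whole tissue fewer cells of a type and less RNA per cell cannot be told apart.

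Per kilobase of exon, the median level over the 56 libraries was highest for Mt1 (52.7 CPM per kb), followed by Nr3c1 (27.3), Tsc22d3 (19.3), Hsd11b1 (14.3), Cdkn1a (10.9), Zbtb16 (7.96), Sgk1 (7.50), Fkbp5 (3.66), Mt2 (0.91) and Lcn2 (0.59 CPM per kb). The ranges over libraries of neighbours in this order overlapped. The order differed by regimen: Hsd11b1 had a median of 27.4 CPM per kb under DRF, beside 26.5 for Nr3c1 and 20.6 for Tsc22d3, and 9.31 under NRF. Zbtb16 lay below Sgk1 under NRF (6.18 and 7.05 CPM per kb) and above it under DRF (10.8 and 8.88).

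**Figure D1:**
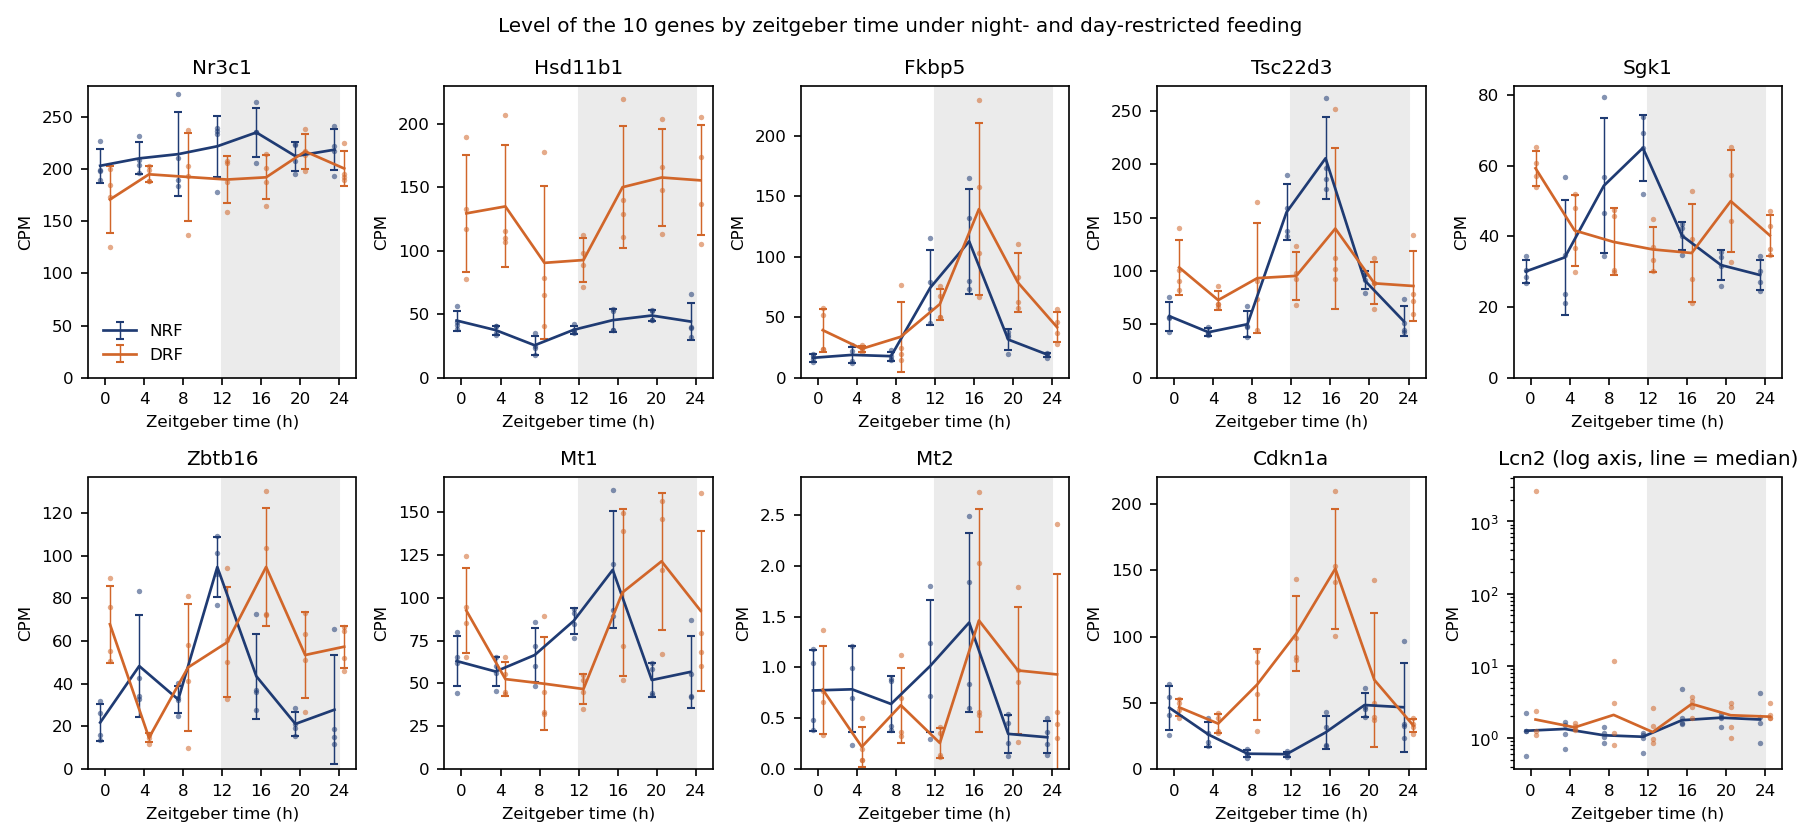
CPM against zeitgeber time for the 10 genes. Points are single mice, lines and bars the mean ± SD of 4 mice under NRF or DRF, the Lcn2 panel has a log axis and a line of medians, and grey marks the dark phase. Fkbp5 was highest at ZT16 under both regimens, and Hsd11b1 was higher under DRF at all 7 times.

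The first comparison asked whether feeding time changed the level of these genes over the day. The mean level was higher under DRF for 3 of the 10 genes, Hsd11b1, Cdkn1a and Fkbp5, where 11.4% of the 25938 genes tested were higher. It was lower for 1, Nr3c1, where 10.3% were lower (limma, Benjamini-Hochberg adjusted p under 0.05). Over the 10 genes the median difference was 0.26 on the log2 scale, beside -0.000360 over all genes. Shares of all genes, here and below, include genes under 1 CPM. Of the 14303 genes with a mean of at least 1 CPM, 5408 passed in either direction, a larger share than over all genes.

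Nr3c1 itself (chr18:39410545-39519421, minus strand, GRCm38 as for all positions here) differed little. It ranged from 178 to 273 CPM under NRF with a median of 215 CPM, and from 125 to 239 CPM under DRF with a median of 197 CPM. The ranges overlapped between 178 and 239 CPM. The mean level fell by 0.17 on the log2 scale under DRF (SE 0.0496, adjusted p = 0.00902, limma), a fold of 0.889, and no single ZT passed the test. Per 1e6 reads on genes it fell by 0.22 (adjusted p = 0.000244) and passed at ZT16 (adjusted p = 0.0483), and the 2 libraries with epithelial markers held 149 and 185 in place of 125 and 137 CPM. The adjusted p was 0.0530 without replicate 3, and without the 2 libraries with epithelial markers the difference was -0.13 (adjusted p = 0.0121). No 24-h rhythm passed under NRF (adjusted p = 0.437, but 0.0497 without replicate 1) or DRF (adjusted p = 1.0) by JTK_CYCLE and Lomb-Scargle combined. Group means ran from 203 to 235 CPM under NRF and from 171 to 217 CPM under DRF.

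Hsd11b1 (chr1:193221634-193264075, minus strand), which regenerates active glucocorticoid from its inert form, rose the most of the 10 genes in mean level. At ZT4 the 4 NRF mice held 40.5, 40.4, 35.5 and 33.3 CPM, and the 4 DRF mice 107, 116, 110.3 and 207 CPM. At ZT16 they held 37.5, 53.7, 37.2 and 52.5 CPM under NRF and 219.6, 140.1, 111 and 129 CPM under DRF. At all 7 ZT every DRF mouse lay above every NRF mouse. The mean level was 3.00-fold higher under DRF (log2 difference 1.59, SE 0.107, adjusted p = 1.76e-16, limma). It passed the test at each of the 7 ZT, from 2.40-fold at ZT12 to 3.49-fold at ZT24. With time points matched on the meal, 12 h apart, 6 of 7 passed. DRF at ZT8 was 1.59-fold of NRF at ZT20 and did not pass (adjusted p = 0.267, limma). DRF at ZT20 was 6.03-fold of NRF at ZT8. The log2 difference in mean level was 1.66 without the 2 libraries with epithelial markers and 1.60 without the library with liver markers. Under NRF the gene was rhythmic, with 48.9 ± 4.24 CPM at ZT20 and 25.4 ± 7.31 CPM at ZT8 (SD, n = 4). The rhythm test, JTK_CYCLE and Lomb-Scargle combined over 28 libraries, gave adjusted p = 0.00108 under NRF and 0.195 under DRF, where the same test on log2(CPM + 1) gave 0.0485. Under DRF the limma test of a 24-h cosine gave 0.00412, a test that 26.7% of all genes passed. The rhythm did not pass the test of a difference between regimens (adjusted p = 0.818), with the fitted peak at 19.8 h under NRF (SE 1.03 h) and 20.8 h under DRF (SE 0.943 h). The gene overlaps Lamb3 and 4930570N18Rik on the opposite strand, and the library kit did not mark strand, so reads from shared bases cannot be told apart. Likewise Fkbp5 overlaps AC154912.1 and a gene with no symbol in the table, and Cdkn1a overlaps AC167363.2.

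Enzymes, carriers and a competing receptor around the hormone formed a list of 8 genes. Of the 7 tested besides Hsd11b1, 1 was higher and 2 were lower under DRF, beside 11.4% of all genes higher and 10.3% lower. Srd5a1, a steroid 5-alpha reductase, rose by 0.48 on the log2 scale (SE 0.0787, adjusted p = 7.37e-06, limma). Nr3c2, the mineralocorticoid receptor, which binds the same hormone, fell by 0.34 (SE 0.0753, adjusted p = 0.000531), and Abcb1a, an efflux pump, fell by 0.19 (SE 0.0439, adjusted p = 0.00131). H6pd, which makes the cofactor for Hsd11b1 in the endoplasmic reticulum, did not pass in mean level (adjusted p = 0.908). Its highest group mean was at ZT12 under NRF (434 CPM) and at ZT20 under DRF (484 CPM), and its rhythm differed (adjusted p = 4.1e-09).

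**Figure D2:**
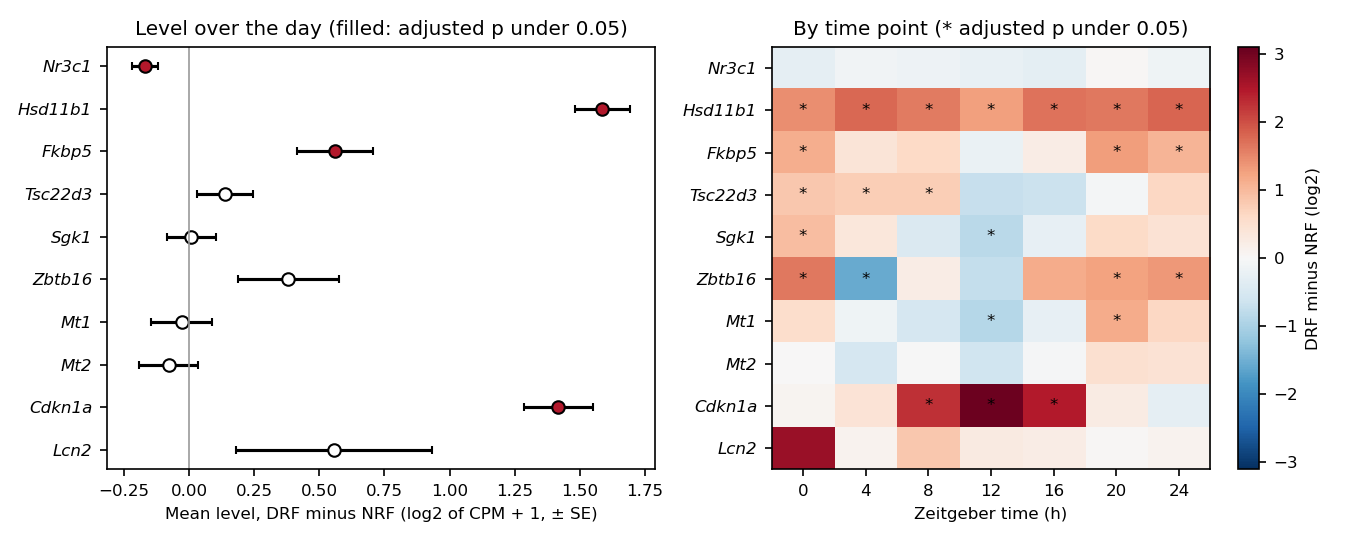
Left, the difference in mean level between DRF and NRF for each gene (log2 of CPM + 1, ± SE), with filled points for adjusted p under 0.05. Right, the same difference at each ZT as a colour, where an asterisk marks adjusted p under 0.05. Hsd11b1 carries an asterisk at all 7 ZT and Cdkn1a at ZT8, ZT12 and ZT16.

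At single ZT, between 2 and 5 of the 10 genes passed, and Hsd11b1 was among them each time. At ZT0 all 5 were higher under DRF, where 5.41% of all genes were higher and 5.06% lower. At ZT4 2 were higher and Zbtb16 was lower (10.4% and 9.05% of all genes), and at ZT8 3 were higher (8.99% and 7.47%). At ZT12 Hsd11b1 and Cdkn1a were higher and Sgk1 and Mt1 lower (8.76% and 7.38%). The counts higher were 2 at ZT16 (5.00% and 4.97%), 4 at ZT20 (6.71% and 6.41%) and 3 at ZT24 (6.09% and 5.24%), with none lower. Without the NRF library with liver markers 1 gene, Hsd11b1, passed at ZT24 (limma). Fkbp5 and Zbtb16 did not pass (adjusted p = 0.111 and 0.101). Their folds were then 1.98 and 2.25, beside 2.07 and 2.54 with this library. Of the 24 calls at single ZT, 13 did not pass without at least 1 of the replicate numbers, and 11 passed without each: Hsd11b1 at all 7 ZT, Cdkn1a at its 3, and Zbtb16 at ZT4. Calls were also gained. Zbtb16 was higher at ZT8 without replicate 1 (adjusted p = 0.0407, limma), and at ZT16 without the 2 libraries with epithelial markers (0.0246). Tsc22d3 was lower at ZT16 and higher at ZT24 without replicate 1 (0.00742 and 0.0287). Without replicate 3, Sgk1 (0.0477) and Mt1 (0.0343) were lower at ZT8. Sgk1 was higher at ZT20 without replicate 1 (0.0416), and Lcn2 at ZT0 among genes of at least 1 CPM (0.0445). With reads on genes as the library size Tsc22d3 did not pass at ZT4 (adjusted p = 0.0992) and passed at ZT12 (0.0478), and Fkbp5 did not at ZT24 (0.0536, limma).

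The second comparison asked whether the 24-h rhythm kept its time in the light cycle or moved with the meal. On the deposited values, a rhythm passed in 7 of the 10 genes under NRF, where 32.5% of all genes passed, and in 4 under DRF, where 17.6% passed. Fkbp5, Zbtb16, Mt1 and Cdkn1a passed under both, as 11.0% of all genes did. The rhythm differed between the regimens in 6 genes (Fkbp5, Tsc22d3, Sgk1, Zbtb16, Mt1 and Cdkn1a), against 36.0% of all genes (limma). Of the 14303 genes with a mean of at least 1 CPM, 7538 had a rhythm under NRF and 4318 under DRF. The rhythm differed in 8058 of them, and these shares are larger than over all genes. Among the 2848 genes with a rhythm under both regimens the fitted peak moved by 8 h or more in 73.6%, by over 4 h and under 8 h in 17.5% and by at most 4 h in 8.92%. Of the 4 members, Fkbp5 moved by at most 4 h, the other 3 by over 4 h and under 8 h, and none by 8 h or more. All 4 shifts differed from 0 h (93.4% of the 2848 genes) and all 4 from 12 h (38.8%).

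Fkbp5 (chr17:28399094-28517527, minus strand) encodes an immunophilin that holds the receptor in a state of low hormone affinity, and it is a widely used readout of receptor activity. At ZT16 its level was 132, 165, 73.7 and 80.4 CPM in the 4 NRF mice and 230.1, 158, 66.7 and 103 CPM in the 4 DRF mice. The regimens overlapped at this time. At ZT4 it was 26.9, 12.4, 22.1 and 13.7 CPM under NRF and 20.5, 24.1, 23.6 and 27.2 CPM under DRF, again with overlap. The rhythm passed under NRF (adjusted p = 9.83e-05) and DRF (adjusted p = 6.35e-05) by JTK_CYCLE and Lomb-Scargle, with amplitudes of 1.32 and 1.16 on the log2 scale. The fitted peak stood at 15.1 h under NRF (SE 0.434 h) and 16.8 h under DRF (SE 0.471 h), 1.73 h later. The 95% interval of this shift was 0.445 to 3.02 h, and its distance from 12 h had adjusted p = 6.4e-18 over the 28 libraries of each regimen. The distance from 0 h had adjusted p = 0.0244, but 0.230 without replicate 1, 0.0917 without replicate 2, 0.0528 without the ZT24 libraries and 0.201 on linear CPM. In these settings the shift was, in the same order, 1.15, 1.81, 1.75 and 1.49 h. The difference in rhythm (adjusted p = 0.0466, limma) likewise gave 0.235 without replicate 1, 0.183 without replicate 2, 0.0699 without replicate 4, 0.108 without the ZT24 libraries and 0.0551 without the library with liver markers.

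The mean level of Fkbp5 was 1.47-fold higher under DRF (log2 difference 0.56, SE 0.146, adjusted p = 0.00350, limma), with a log2 difference of 0.62 without the 2 libraries with epithelial markers. The difference passed at ZT0 (2.17-fold, adjusted p = 0.0349), ZT20 (2.44-fold, adjusted p = 0.00976) and ZT24 (2.07-fold, adjusted p = 0.0467), and not at the peak. At ZT24 the fold was 1.98 without the NRF library with liver markers (adjusted p = 0.111, limma). At ZT20 the NRF mice held 33.7, 37.5, 35.6 and 19.2 CPM, and all 4 DRF mice lay above them with 57.5, 83.5, 111 and 62.6 CPM. At ZT16 the log2 difference was 0.24 (SE 0.356, adjusted p = 0.792). With time points matched on the meal, 12 h apart, the regimens differed in the shape of the day (adjusted p = 6.11e-10, limma F test of the 7 differences less their mean), while at the same ZT the shape did not pass (adjusted p = 0.120). DRF at ZT16 was 6.72-fold of NRF at ZT4, and DRF at ZT4 was 0.230-fold of NRF at ZT16.

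**Figure D3:**
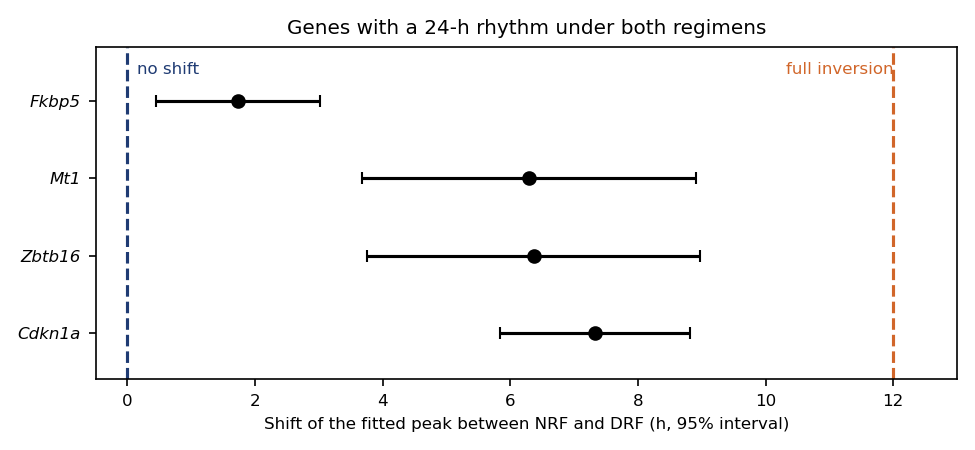
Shift of the fitted peak between NRF and DRF (h) for the 4 members with a 24-h rhythm under both regimens, as its size with 95% intervals. Fkbp5 lies at 1.73 h, and Mt1, Zbtb16 and Cdkn1a lie between 6.30 and 7.33 h. None of the 4 intervals reaches 12 h.

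Tsc22d3 (chrX:140539528-140600659, minus strand) encodes GILZ, a leucine zipper protein that mediates part of the anti-inflammatory action of glucocorticoids. At ZT16 the NRF mice held 177, 262, 186 and 197 CPM and the DRF mice 252, 112, 92.6 and 102 CPM. At ZT4 they held 47.8, 39.8, 40.6 and 42.1 CPM under NRF and 69.1, 66.2, 69.3 and 85.9 CPM under DRF. All DRF mice lay above all NRF mice at ZT4, while at ZT16 1 DRF mouse reached the NRF range. Under NRF the group mean rose 4.83-fold between its lowest and highest times, and under DRF 1.92-fold. The rhythm had adjusted p = 2.63e-07 under NRF and 0.335 under DRF by JTK_CYCLE and Lomb-Scargle, and 2.27e-05 for their difference by limma. On the log2 scale the amplitude was 1.14 in NRF mice and 0.27 in DRF mice (adjusted p = 0.00113 in the cosine fit over 56 libraries). Tsc22d3 was the 1 member whose amplitude passed this test, where 1.10% of all genes were lower. The gene was higher under DRF at ZT0 (1.78-fold), ZT4 (1.69-fold) and ZT8 (1.69-fold), with adjusted p of 0.0367, 0.0398 and 0.0438 by limma. At ZT24 it was 1.57-fold and did not pass (adjusted p = 0.110, and 0.256 without the library with liver markers). The fold was 0.611 at ZT12 (adjusted p = 0.0621) and 0.632 at ZT16 (adjusted p = 0.113). Without replicate 1 the log2 difference at ZT16 was -1.05 (adjusted p = 0.00742, limma), beside -0.66 with all mice. ZT12 passed without the 2 libraries with epithelial markers (0.0340), without replicate 3 (0.0404) and among genes of at least 1 CPM (0.0390).

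Sgk1 (chr10:21882184-21999903, plus strand), a kinase that promotes ion and nutrient transport, differed in opposite directions at ZT0 and ZT12. Under NRF its level was 52.0, 73.8, 69.1 and 65.1 CPM at ZT12 and 34.5, 26.9, 28.4 and 30.4 CPM at ZT0. Under DRF it was 36.9, 30.1, 44.9 and 33.2 CPM at ZT12 and 65.3, 57.0, 53.9 and 60.9 CPM at ZT0. All 4 DRF mice lay above all 4 NRF mice at ZT0 and below them at ZT12. The difference was 1.94-fold at ZT0 (adjusted p = 0.00538, limma) and 0.563-fold at ZT12 (adjusted p = 0.0109). At ZT24 it was 1.37-fold and did not pass (adjusted p = 0.231), and under DRF the change over the day did not pass (adjusted p = 0.0733, but 0.0462 among genes of at least 1 CPM and 0.0488 with reads on genes as the library size). The rhythm passed under NRF (adjusted p = 9.61e-05) and not under DRF (adjusted p = 0.567) by JTK_CYCLE and Lomb-Scargle, where ZT24 held 40.2 ± 5.82 CPM and ZT0 59.2 ± 4.94 CPM (SD of 4 mice). The difference in rhythm had adjusted p = 3.98e-06 by limma. The cosine fit put the peak at 11.2 h under NRF (SE 0.736 h) and 23.7 h under DRF (SE 1.54 h). Matched on the meal, the regimens did not pass the test of a difference (adjusted p = 0.221), with log2 differences of -0.68 to 0.28. The counts do not separate the 6 starts of this gene, of which 1 follows the window shown above.

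Zbtb16 (chr9:48654297-48836222, minus strand), which encodes the zinc finger repressor PLZF, was highest at ZT12 under NRF with 101, 76.7, 109 and 91.5 CPM, and at ZT16 under DRF with 130.2, 72.1, 72.9 and 104 CPM. At ZT4 the NRF mice held 83.4, 34.0, 42.7 and 32.9 CPM and the DRF mice 11.7, 16.2, 14.7 and 16.04 CPM. The groups did not overlap at ZT4, where the fold was 0.340 (adjusted p = 0.00559, limma), and the gene was 3.11-fold higher under DRF at ZT0 (adjusted p = 0.00717). The fitted peak was 6.37 h later under DRF (95% interval 3.76 to 8.97 h), which differed from 0 h (adjusted p = 5e-05) and from 12 h (adjusted p = 0.000948, but 0.0748 without replicate 2). The rhythm had adjusted p = 0.0302 under DRF by JTK_CYCLE and Lomb-Scargle, and 0.0653, 0.365 and 0.266 without replicates 1, 2 and 4, 0.0624 without the ZT24 libraries and 0.0864 on log2(CPM + 1). Under NRF it was 0.00275, and 0.0987 and 0.0625 without replicates 2 and 4.

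The metallothioneins Mt1 and Mt2 bind zinc and copper and are induced by metals as well as by glucocorticoids. Mt1 (chr8:94179082-94180327, plus strand) was highest at ZT16 under NRF with 119.8, 163, 89.3 and 92.7 CPM. Under DRF its highest mean was at ZT20 with 67.0, 116, 146 and 156 CPM, where the NRF mice held 43.1, 62.0, 58.5 and 44.3 CPM, all below the DRF mice. This difference was 2.23-fold (adjusted p = 0.00635, limma), and at ZT12 the fold was 0.539 (adjusted p = 0.0359). The fitted peak moved from 13.8 h to 20.1 h, 6.30 h later (95% interval 3.68 to 8.91 h). The shift differed from 0 h (adjusted p = 6.35e-05) and from 12 h (adjusted p = 0.000869). The mean level did not pass (0.981-fold, adjusted p = 0.904). The rhythm had adjusted p = 0.0272 under NRF and 0.000174 under DRF by JTK_CYCLE and Lomb-Scargle, and the first was 0.178 without replicate 3, 0.110 without replicate 4, 0.0857 without the ZT24 libraries and 0.0574 without the library with liver markers. Mt2 (chr8:94172664-94173568, plus strand) held 3 to 118 reads per library (0.0846 to 2.73 CPM) and passed neither rhythm test. Of its 588 exon bases, 432 are shared with the antisense gene Gm45774, listed at 0 to 0.190 CPM. Without strand these reads cannot be told apart, so the level of Mt2 and its ratio to Mt1 are uncertain.

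Cdkn1a (chr17:29090976-29100727, plus strand) encodes p21, a cell cycle inhibitor induced by p53 and also by glucocorticoids. Under NRF it was 11.3, 11.6, 8.38 and 15.1 CPM at ZT8 and 13.7, 9.13, 10.95 and 11.2 CPM at ZT12, its lowest times. Under DRF it was 28.9, 81.1, 88.9 and 56.4 CPM at ZT8 and 82.3, 98.8, 84.2 and 143 CPM at ZT12. Every DRF mouse lay above every NRF mouse at ZT8, ZT12 and ZT16. The difference was 4.82-fold at ZT8, 8.29-fold at ZT12 and 5.51-fold at ZT16, with adjusted p of 8e-06, 2.21e-08 and 4.88e-06 by limma. It did not pass at ZT0, ZT4, ZT20 or ZT24. The mean level was 2.67-fold higher (log2 difference 1.42, SE 0.133, adjusted p = 1.46e-11), and the log2 difference was 1.46 without the 2 libraries with epithelial markers and 1.45 without the library with liver markers. Rhythms passed under NRF (adjusted p = 1.51e-05) and DRF (adjusted p = 0.000920) by JTK_CYCLE and Lomb-Scargle. The fitted peak moved 7.33 h earlier, from 21.8 h to 14.5 h (95% interval of the size 5.84 to 8.82 h), short of 12 h (adjusted p = 3.48e-06).

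Lcn2 (chr2:32384633-32388252, minus strand) encodes lipocalin 2, an iron-siderophore binding protein of epithelia, neutrophils and fat cells. It stood at 0.566 to 4.75 CPM in the 28 NRF libraries and at most 3.65 CPM in the DRF libraries other than the 2 with epithelial markers. Those held 2666 CPM (ZT0 replicate 4) and 11.5 CPM (ZT8 replicate 1). In the first, Wfdc2 was at 292 CPM and Sprr2f at 1564 CPM, both epithelial genes whose highest values in the other 54 libraries were 10.03 and 7.41 CPM. Ovgp1, the oviduct gene of the same marker list, was at 1.20 CPM in the first and 0.881 CPM in the second. Its highest value in the other 54 was 1.07 CPM. The 7 measured of 8 listed neutrophil markers summed to 4240 and 130.4 CPM in these 2 libraries, and to 0.848 to 37.6 CPM in the other 54. Most of both sums was Ltf, which uterine epithelium also makes (4229 and 109 CPM). S100a8 and S100a9, abundant cytosolic proteins of neutrophils, were at 0.465 and 0.318 CPM in the first library and 1.46 and 1.35 CPM in the second, with highest values of 2.72 and 1.10 CPM in the other 54. The part of either cell type in the level of Lcn2 was not tested. The mean level of Lcn2 did not pass with these libraries (log2 difference 0.56, SE 0.377, adjusted p = 0.328, limma) or without them (0.18, adjusted p = 0.207). Its rhythm under NRF had adjusted p = 0.0602 by JTK_CYCLE and Lomb-Scargle, and 0.0401 among genes of at least 1 CPM.

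**Figure D4:**
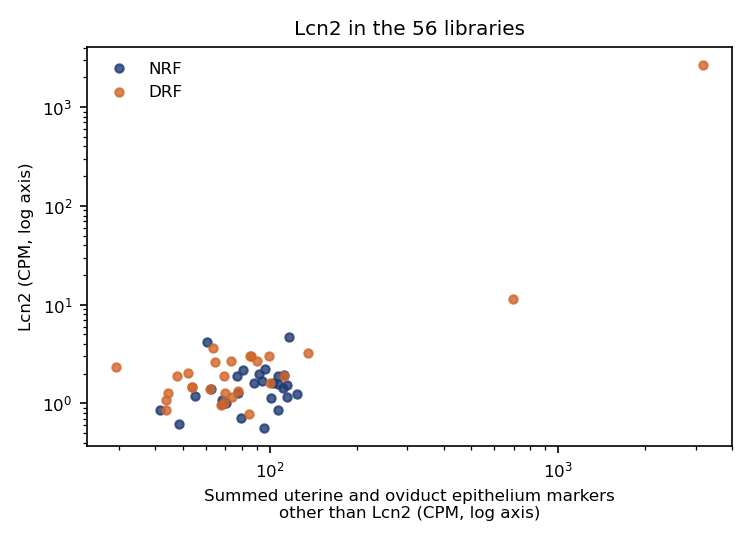
Lcn2 (CPM, log axis) against the summed level of the other uterine and oviduct epithelium markers (CPM, log axis) in 56 libraries. Points are single mice under NRF or DRF, and the 2 points at the upper right are DRF ZT0 replicate 4 and DRF ZT8 replicate 1.

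Over the 7 time points together, 7 of the 10 genes differed between the regimens at the same ZT, against 42.7% of all genes, and 6 at the same stage of feeding, against 29.5% (limma F tests). Of the 14303 genes with a mean of at least 1 CPM, 9980 and 7577 differed in the same order, again larger shares. In the shape of the day alone, 5 genes differed at the same ZT, against 31.9%, and 6 at the same stage of feeding, against 12.9%. Tsc22d3, Zbtb16, Mt1 and Cdkn1a passed both shape tests, Sgk1 passed the first, and Fkbp5 and Hsd11b1 passed the second. Both tests use the same libraries and are given side by side. Over the 7 time points at the same stage of feeding, Mt1 had adjusted p = 0.0908, 0.198 and 0.0555 without replicates 1, 2 and 4, and Zbtb16 0.119 and 0.0587 without replicates 2 and 4. At the same ZT, Mt1 had 0.0755 without replicate 4. A change over the day passed in 6 genes under NRF (27.6% of all genes) and 5 under DRF (28.2%). Of these, Mt1 under NRF did not pass without replicate 1, 2 or 4, and Hsd11b1 under DRF did not pass without replicate 1, 2 or 4 or without the 2 libraries with epithelial markers. A 12-h term passed in none under NRF (0.0270%) or DRF (1.20%) by limma. At an unadjusted p under 0.05 it did in 2 of the 10 genes under NRF (5.76% of all genes) and 1 under DRF (14.7%). Some calls were gained under an alternative. At the same stage of feeding Lcn2 passed without the 2 libraries with epithelial markers (adjusted p = 0.0275, limma), Mt2 without replicate 4 (0.0299), and Nr3c1 without replicate 1 (0.0398) and among genes of at least 1 CPM (0.0424). With reads on genes as the library size Nr3c1 passed at the same stage of feeding (0.00582) and at the same ZT (0.00353). In change over the day, Hsd11b1 under NRF passed without replicate 3 (0.0420) and without the 2 libraries (0.0320). Under DRF that change passed for Tsc22d3 (0.0288) and Mt2 (0.0354) without replicate 3, and for Mt2 with a pseudocount of 0.5 CPM (0.0438).

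The wider pathway was read from lists of named genes. The shares of all genes beside them include genes under 1 CPM, as stated above. Of 32 other genes known to be raised by glucocorticoids, 2 were higher and 3 lower under DRF in mean level, beside 11.4% of all genes higher and 10.3% lower, with a median difference of -0.02 on the log2 scale. In 11 of them a rhythm passed under both regimens, beside 11.0% of all genes. Among these the fitted peak moved by 8 h or more in 5, where 73.6% of all genes with both rhythms moved as far. It moved by at most 4 h in 2 (beside 8.92%), Fam107a (3.20 h) and Lifr (3.97 h), which were named after their values were seen. Txnip, an inhibitor of thioredoxin and of glucose uptake, moved by 11.1 h (SE 0.556 h), Pck1, the enzyme of glyceroneogenesis, by 10.8 h (SE 0.574 h) and Nfil3, a clock output repressor, by 10.01 h (SE 0.583 h). These 3 were named by the smallest p of the rhythm difference, which favours large shifts. Group means of Pck1 ran from 57.1 CPM at ZT20 to 2278 CPM at ZT8 under NRF and from 146 CPM at ZT12 to 2215 CPM at ZT24 under DRF. In mean level, Cdkn1c, another cell cycle inhibitor, fell by 0.42 (SE 0.0674, adjusted p = 4.6e-06, limma), Txnip fell by 0.42 (SE 0.0938, adjusted p = 0.000566), and Anxa1, an anti-inflammatory annexin, rose by 0.29 (SE 0.0650, adjusted p = 0.000556).

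Of 13 receptor chaperones besides Fkbp5, 11 had a rhythm under NRF and 2 under DRF, beside 32.5% and 17.6% of all genes. The rhythm differed in 10, beside 36.0%. A change over the day of any shape passed in 11 under NRF and 9 under DRF, beside 27.6% and 28.2%, and the second count was 6 without replicate 4 (limma). A 12-h term under DRF passed in 5, beside 1.20%. These genes, named after their values were seen, were Hspa8 (adjusted p = 0.00218, limma), Dnaja1 (0.00218), Stip1 (0.0188), Ptges3 (0.0224) and Hsp90ab1 (0.0263), and without any 1 replicate number 2 of the 13 passed. Hspa8, the constitutive Hsp70, had group means of 596 to 2679 CPM under NRF (highest at ZT20) and 482 to 1759 CPM under DRF (highest at ZT16). In mean level 3 were higher under DRF and none lower, beside 11.4% and 10.3% of all genes. Bag1, a co-chaperone, rose by 0.26 (SE 0.0610, adjusted p = 0.00133, limma), the phosphatase gene Ppp5c rose by 0.11 (SE 0.0340, adjusted p = 0.0152) and Hspa4, an Hsp110 chaperone, rose by 0.14 (SE 0.0540, adjusted p = 0.0477). Of 13 coregulators, 1 was higher and 2 lower in mean level (11.4% of all genes higher and 10.3% lower), and the rhythm of 7 differed (36.0% of all genes). In 6 of the 13 a rhythm passed under both regimens, and in 3 of these the peak moved by 8 h or more. Among all genes with both rhythms 73.6% moved as far. The peak of the corepressor gene Ncor1, named by its rhythm difference, moved by 10.9 h (SE 0.865 h). Of 12 inflammatory genes known to be lowered by glucocorticoids, 1 was higher and 3 lower under DRF, against the same shares of all genes. Vcam1, an endothelial adhesion molecule, fell by 0.51 (SE 0.0640, adjusted p = 2.86e-08), and Ccl7, a monocyte chemokine, rose by 0.28 (SE 0.104, adjusted p = 0.0488).

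Of 12 p53 pathway genes besides Cdkn1a, 3 were higher under DRF and none lower (limma), beside 11.4% of all genes higher and 10.3% lower. The nuclease gene Aen rose by 0.21 on the log2 scale (SE 0.0557), the cyclin gene Ccng1 rose by 0.17 (SE 0.0570) and Mdm2, which degrades p53, rose by 0.14 (SE 0.0499), beside 1.42 for Cdkn1a. In 6 of the list genes a rhythm passed under both regimens, and in 4 of these the peak moved by 8 h or more. Among all genes with both rhythms 73.6% moved as far. The peak of Aen moved by 11.8 h (SE 0.618 h) and that of Phlda3, an inhibitor of Akt, by 11.5 h (SE 0.843 h). Both shifts are given for genes named by the smallest p of the rhythm difference, which favours large shifts. Of 8 other metal response genes tested, none was higher and 1 was lower against these shares, the zinc exporter gene Slc30a1, which fell by 0.13 (SE 0.0404). Of 10 acute phase genes, 4 were higher and 3 lower, beside 11.4% of all genes higher and 10.3% lower. The counts were the same without the library with liver markers, and the median difference of the list was -0.07 on the log2 scale. Among those higher, the acid glycoprotein genes Orm1 and Orm2 rose by 0.86 and 1.14 (SE 0.0966 and 0.109, adjusted p = 2.04e-09 and 2.03e-11, limma).

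Several members varied widely between mice of 1 group. Under DRF the pooled SD within groups was 0.60 on the log2 scale for Fkbp5, the 96.8 percentile of the 14303 genes with a mean of at least 1 CPM. It was 0.63 for Zbtb16 (percentile 97.2) and 0.20 for Nr3c1 (percentile 52.0). These SDs include the 2 libraries with epithelial markers, and for all 3 genes the largest SD was at ZT8, the group of 1 of them. Under NRF the percentiles were 95.5 for Fkbp5, 98.3 for Zbtb16 and 41.7 for Nr3c1. Deviations from the group mean went together in some pairs over the 56 mice. All 45 pairs were computed, with two-sided p from 100000 permutations within groups, adjusted over the 45, where 1e-05 is the smallest p they can give. Of these, 15 passed, 14 with r above 0 and 1 below. The share of passing pairs over all genes was not computed, so this count is not shown to be particular to these genes. The strongest was Mt1 with Mt2, neighbours on the chromosome, with Pearson r = 0.76 (p = 1e-05, adjusted p = 0.000150) and Spearman rho = 0.76 (p = 1e-05), and r = 0.73 without the 2 farthest mice, and the level of Mt2 is uncertain as given above. The negative pair was Nr3c1 with Lcn2, with Pearson r = -0.53 (p = 0.00660, adjusted p = 0.0250) and Spearman rho = -0.36 (p = 0.0220), and r = -0.33 without the 2 farthest mice. Its r was -0.19 without the 2 libraries with epithelial markers, which hold the highest Lcn2. Nr3c1 with Fkbp5 had r = -0.14 (adjusted p = 0.61) with all mice and -0.48 without these 2 libraries. Within regimens its r was -0.52 under NRF and 0.07 under DRF. Tsc22d3 and Mt1 gave Pearson r = 0.73 (p = 1e-05, adjusted p = 0.000150) and Spearman rho = 0.65 (p = 1e-05), and r = 0.67 without the 2 farthest mice. For Fkbp5 and Mt1 the values were Pearson r = 0.68 (p = 1e-05, adjusted p = 0.000150) and Spearman rho = 0.61 (p = 2e-05), and r = 0.59 without the 2 farthest mice. Fkbp5 and Tsc22d3 gave Pearson r = 0.62 (p = 0.000190, adjusted p = 0.00210) and Spearman rho = 0.47 (p = 0.00160), and r = 0.52 without the 2 farthest mice. Within regimens this pair had r = 0.15 under NRF and 0.81 under DRF. Hsd11b1 and Fkbp5 gave Pearson r = 0.54 (p = 0.00170, adjusted p = 0.00850) and Spearman rho = 0.41 (p = 0.00630), and r = 0.37 without the 2 farthest mice. Their r was near 0 under NRF (-0.000315) and 0.75 under DRF. The difference in r between the regimens was not tested. Without the 2 libraries with epithelial markers r was 0.81 for Mt1 with Mt2, 0.74 for Tsc22d3 with Mt1 and 0.68 for Fkbp5 with Mt1. It was 0.56 for Fkbp5 with Tsc22d3 and 0.45 for Hsd11b1 with Fkbp5. Sgk1 and Fkbp5 gave Pearson r = 0.18 (p = 0.280, adjusted p = 0.420) and Spearman rho = 0.11 (p = 0.490), and r = 0.18 without the 2 farthest mice.

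**Figure D5:**
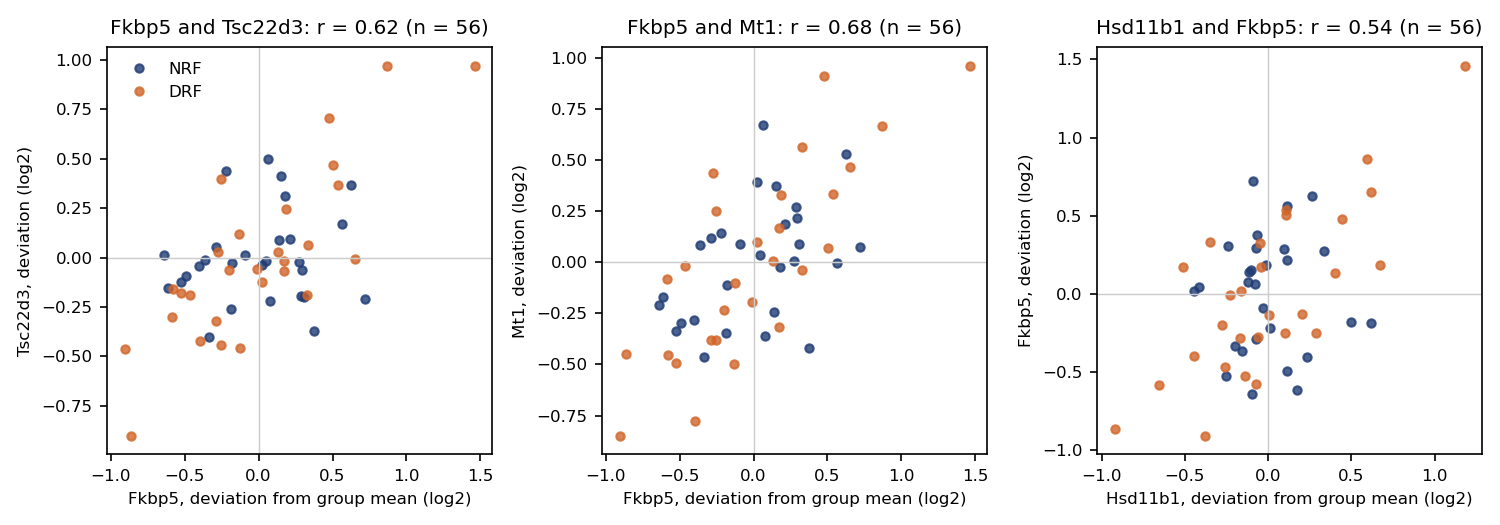
Deviation of each mouse from the mean of its group (log2 of CPM + 1) for Fkbp5 with Tsc22d3, Fkbp5 with Mt1, and Hsd11b1 with Fkbp5, under NRF and DRF, 56 mice in all. Over all mice the clouds slope upward with r of 0.62, 0.68 and 0.54, and the points farthest from the centre are DRF mice. In the same order r was 0.15, 0.43 and -0.000315 under NRF and 0.81, 0.79 and 0.75 under DRF.

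Across the 14 group means, the genes most like Fkbp5 were Map3k6 (r = 0.98), Tead1 (0.93), Slc43a3 (0.93), Myrip (0.91) and Stk35 (0.91), among 14302 other genes with a mean of at least 1 CPM. Of the members, Tsc22d3 was most like it (r = 0.87, rank 13). The genes most like Nr3c1 were Gm765 (0.90), Enpp2 (0.88), Zfhx4 (0.85), Jam2 (0.85) and Gstt1 (0.84), and the members lay between -0.66 (Lcn2) and 0.23 (Mt1) with it. Without the 2 libraries with epithelial markers the 5 genes most like Fkbp5 were the same, while of those named for Nr3c1 Enpp2 ranked 3, Gstt1 2, Gm765 15, Zfhx4 78 and Jam2 117. The r of Lcn2 with Nr3c1 was then -0.00834, and the members lay between -0.60 (Hsd11b1) and 0.23 (Mt1). These r describe 14 groups that share regimens and times, and carry no test.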

How the data were processed

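VAT poly(A) RNA was read from 56 libraries. Per the labels and the submitters' processing notes the authors aligned reads with HISAT2 (2.0.5) to mm10 and counted them with featureCounts (1.5.0-p3). The authors deposited 1 score per gene and library. The score was found to be a library scale times log2(CPM + 1) divided by exon length, so whole reads were recovered from its steps: all 1262086 values of 1 to 10000 reads were whole within 0.02 reads. CPM divides these reads by the library size the steps imply, 0.934 to 1.36 times the reads on genes; how the authors set it is not given in the sources used here. For 1 gene the reads could not be resolved, which left 25938 genes. For 882 genes, Nr3c1 included, the length was taken from the values, and GENCODE M21 (GRCm38) gave the others.

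Since the values are no raw counts, limma (3.58.1, R 4.3.3) on log2(CPM + 1) with a trended prior gave mean levels, rhythm differences (24-h cosine and sine per regimen) and time point tests. Rhythm within a regimen was JTK_CYCLE and Lomb-Scargle combined, run on the deposited scores, which hold the library scale, unless log2(CPM + 1) is named. Phases came from a cosine per regimen on log2(CPM + 1) (numpy 2.4.6, scipy 1.17.1). P-values were adjusted over all 25938 genes (Benjamini-Hochberg, 0.05). The scripts were tested on simulated data. Replicate numbers are read as different mice; the labels do not say how animals were allotted, so p-values measure the spread between these samples. Meal-matched time points are 12 h apart; the hours of food access are not given in the sources used here.

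The members and lists were chosen with earlier results of these data known. The 10 members are always named. From each list the text names genes among the 3 outside the members with the smallest adjusted p of the mean level and the 3 with the smallest of the rhythm difference, and the 5 genes most like Fkbp5 and Nr3c1. Exceptions, chosen after their values were seen, are Fam107a, Lifr and the chaperones with a 12-h term. The cell type markers Adipoq, Wfdc2, Sprr2f, Ovgp1, Ltf, S100a8 and S100a9 are given for their levels and not by this rule. Alternatives were median-of-ratios scaling, a pseudocount of 0.5 CPM, a mean CPM of at least 1, a replicate block, leaving out each replicate number, the ZT24 libraries or the 2 epithelial-marker libraries, and other rhythm tests. The shape tests, the log2 scale for single mice, reads on genes as library size and leaving out NRF ZT24 replicate 4, the library with liver markers, were chosen after seeing the data.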

Additional observations from a re-analysis of the deposited data

Results flagged for a closer look

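Within groups of 4 mice, 14 of the 140 groups (10 genes in 14 groups) held a mouse far from the other 3 on the CPM scale. Chance gives about 1 in 20 groups if values are normal, and on the log2(CPM + 1) scale 7 groups did, 6 of them among the 14 (Nr3c1 at NRF ZT12, Hsd11b1 at DRF ZT4, Fkbp5 at NRF ZT24, and all 3 of Lcn2). Single high mice were Nr3c1 at DRF ZT24 (225 CPM, replicate 4), Hsd11b1 at DRF ZT4 (207 CPM, replicate 4), Fkbp5 at DRF ZT8 (76.6 CPM, replicate 3), Tsc22d3 at DRF ZT4 (85.9 CPM, replicate 4) and at DRF ZT16 (252 CPM, replicate 1), and Zbtb16 at NRF ZT24 (65.9 CPM, replicate 1). Others were Mt2 at DRF ZT24 (2.41 CPM, replicate 3), Cdkn1a at NRF ZT24 (96.7 CPM, replicate 4) and at DRF ZT20 (143 CPM, replicate 3), and Lcn2 at NRF ZT16 (4.75 CPM, replicate 3), DRF ZT24 (3.01 CPM, replicate 3) and DRF ZT0 (2666 CPM, replicate 4). In the NRF ZT24 replicate 4 library, which held this high Cdkn1a and a low Fkbp5, the 5 measured liver markers summed to 1615 CPM, beside an NRF median of 24.9 CPM, and the part of these cells was not tested. Single low mice were Nr3c1 at NRF ZT12 (178 CPM, replicate 1) and Fkbp5 at NRF ZT24 (16.6 CPM, replicate 4).

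The 24-h rhythm differed between NRF and DRF by limma's test of the difference itself, with adjusted p of 0.0466 for Fkbp5, 2.27e-05 for Tsc22d3, 3.98e-06 for Sgk1, 0.00125 for Zbtb16, 5.92e-05 for Mt1 and 1.34e-10 for Cdkn1a.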

How the results depend on the processing

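Of the members' call counts under the alternatives, 128 stayed within 1.5 times the reported count and 2 did not: with Lomb-Scargle alone, 0 members were rhythmic under NRF and 0 under DRF, as were 0 of all genes. Mean level differences that did not pass changed sign for Mt1 (0.0791 with the means of the 7 group means, and -0.104 to 0.00378 without 1 replicate number) and Sgk1 (-0.0449 to 0.0906 without 1 replicate number, and -0.0366 with reads on genes as the library size). The mean level of Zbtb16 passed without replicate 1 (adjusted p = 0.0140, limma) and with group means (0.0250). Replicate numbers did not pair the mice: the median correlation of deviations was 0.0334 over 364 same-number and -0.0102 over 1092 other pairs, and 16 of 56 libraries matched their own number best. With a replicate block, 4 members passed in mean level and 6 in rhythm difference, as without it, and 7 in place of 6 at the same stage of feeding (Nr3c1, adjusted p = 0.0376). Over all genes, rhythms under DRF numbered 4576, but 2599 without replicate 2, 2386 without replicate 3, 2873 without ZT24, and 6929 (7185 with the block) by limma's F test. 12-h terms numbered 310 under DRF but 31 to 83 without 1 replicate number, and 7 under NRF but 3 to 33 under the alternatives. Without replicate 2, changes over the day fell from 7152 to 3738 under NRF and from 7305 to 4032 under DRF (4673 and 4695 without replicate 4), and differences at the same stage of feeding from 7651 to 2988 (4575 without replicate 4). Depth limits Mt2 and Lcn2 most.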
